A study of Mus musculus with 8 samples.

Results

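The response of WT mouse liver to refeeding was measured by comparing RNA-seq read counts of 2 WT-Refed libraries with those of 2 WT-Fasted libraries. The members were chosen by their labels, and they are 4 of the 8 libraries of the series. All mice were of the C57BL/6 strain and 12 weeks old, and RNA came from whole liver. WT-Fasted mice went without food overnight, and WT-Refed mice were fasted overnight and then given food for 4 h. The series was made to study HRD1 (gene Syvn1), an ER-resident ubiquitin ligase, and its other 4 libraries come from KO mice in which albumin-Cre deletes HRD1 in hepatocytes. The study describes its controls as floxed mice without Cre, while the labels here say WT, so whether these 4 mice carry floxed alleles is not given in the sources used here. The labels do not say that the libraries of a group come from separate mice, so the p-values measure the spread between these libraries, which may be technical. The hour at which the livers were taken is not given in the sources used here.

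In the fasted liver, glucagon and glucocorticoids keep gluconeogenesis, fatty acid oxidation and ketogenesis active, and FOXO factors and the nuclear receptor PPARalpha drive many of the genes involved. Food raises insulin, which shuts FOXO targets down and activates the lipogenic factor SREBP-1c. The secretory pathway and the circadian clock of the liver also respond to meals, the former through the unfolded protein response and the latter by taking feeding as a time cue.

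Total counts per library ranged from 40210576 to 49117080, so that 3 counts corresponded to 0.0611 to 0.0746 CPM (counts of a gene per 1e6 counts of the library). Values below are CPM after TMM normalization, which corrects library sizes for composition, and are given per library as fasted 1, fasted 2, refed 1 and refed 2. The 50 genes with the highest counts took 33.3% to 38.2% of the counts. Over the tested genes Spearman's rho was 0.989 between the fasted libraries and 0.994 between the refed libraries. A difference of at least 2-fold separated the fasted libraries at 784 genes (5.85%) and the refed libraries at 371 genes (2.77%). The first principal component carried 65.7% of the variance and separated fasted from refed. All 4 libraries carried Y-linked transcripts, with a summed level of 193 to 219 CPM, and Xist at 0.306 CPM or less. The 7 hepatocyte markers summed to 128300, 140100, 99990 and 106700 CPM, with Cyp2e1 called lower. Of the 7 markers each of Kupffer cells, sinusoidal endothelial cells and lymphocytes, none was past the threshold of the test below. The 7 stellate cell markers, also without a call, summed to 165, 332, 153 and 187 CPM, highest in fasted 2. The 6 cholangiocyte markers summed to 38.3, 62.0, 32.5 and 29.0 CPM, with Sox9 lower in the refed libraries. Alpha and beta globin genes (Hba-a1, Hba-a2, Hbb-b1) were at 0 counts in all 4 libraries, and Gapdh, which has many near-identical pseudogenes, stood at 2.37, 1.96, 2.92 and 2.40 CPM. Levels of genes with near-identical copies are uncertain in these counts.

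A large set of genes differed between refed and fasted liver, in both directions. The hour of collection is not given, so refeeding and time of day cannot be told apart for any of them. Of 13406 tested genes, 909 were higher in refed liver (6.78%) and 973 were lower (7.26%) at a Benjamini-Hochberg adjusted p under 0.05 in edgeR's quasi-likelihood test, which is what "called" means below. At least 2-fold changes were found for 315 of the former and 332 of the latter. In all 1882 called genes both refed libraries lay on the same side of both fasted libraries, as they also did in 4184 genes on the higher side and 4113 on the lower side irrespective of a call. The median log2 fold change over all tested genes was -0.003, and this is the background for the medians of gene groups below. With library totals in place of TMM factors this median moved to 0.15, and the calls became 1694 higher and 621 lower, so that 73.2% of calls were higher, against 48.3% with TMM. In a fit with all 8 libraries, which also takes in the spread between KO libraries, 172 genes were called higher and 202 lower, all of them among the 1882. Fewer genes were called in each direction when either refed library was left out, and more when either fasted library was left out. Each of these fits has 1 group of a single library, and the cause of the difference was not tested. Of 177 called genes that are named or listed here, 36 were called under all alternatives that tested them. An exact permutation test of a single value with 2 against 2 libraries cannot give a two-sided p below 0.333, so single genes rest on the fit across all genes.

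**Figure D1:**
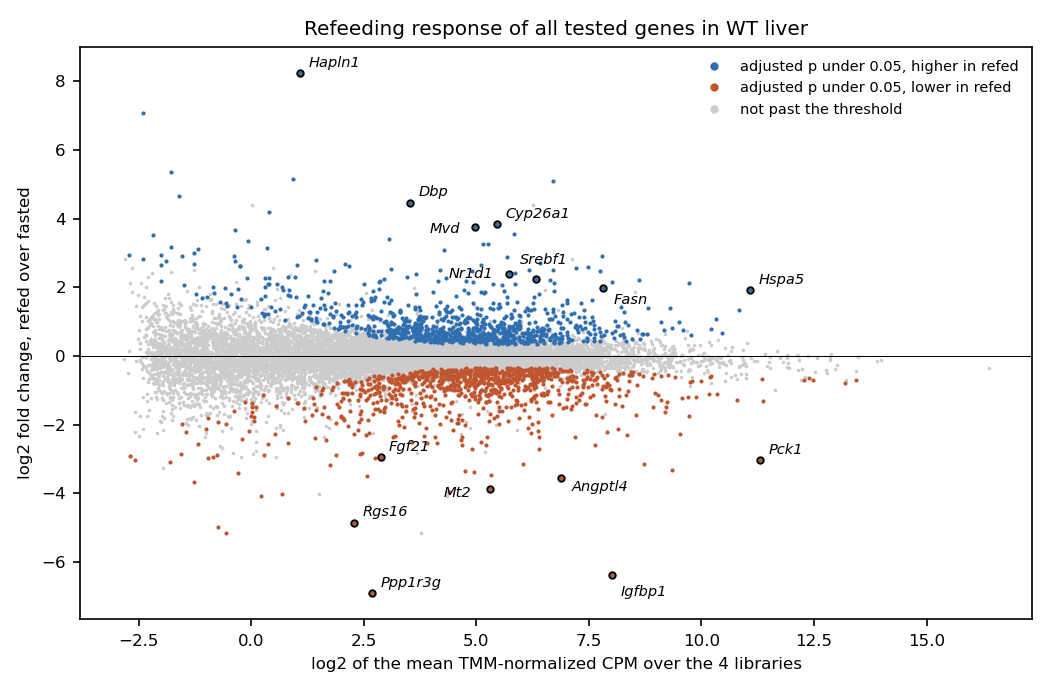
Each point is a tested gene of WT liver, with the log2 of its mean CPM over the 4 libraries on the x axis and its log2 fold change, refed over fasted, on the y axis. Blue points (909) were called higher in refed liver and orange points (973) lower, and circled genes are named in the text, with Dbp at 4.47 and Pck1 at -3.05.

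Several genes that make glucose or that insulin represses through FOXO1 fell in refed liver. Pck1 (chr2:173153073-173159274, GRCm38), which encodes the rate-limiting enzyme of gluconeogenesis, had 4994, 4076, 522 and 575 CPM. The refed libraries lay far below the fasted libraries and close to each other, with a log2 fold change of -3.05 ± 0.17 (SE, adjusted p = 0.00243). G6pc, the glucose-6-phosphatase that releases glucose into blood, had 584, 939, 77.4 and 94.4 CPM and changed by -3.15 ± 0.26 (SE, adjusted p = 0.00441). Igfbp1, a secreted IGF-binding protein and classical insulin-repressed gene, had 338, 684, 5.84 and 6.29 CPM, the largest fall of this group, with a log2 fold change of -6.40 ± 0.40 (SE, adjusted p = 0.00281). Its refed levels differed little between libraries, whereas fasted 2 was about 2-fold above fasted 1. Values in parentheses after CPM below are the log2 fold change, refed over fasted, ± SE, and other values written with ± are the same quantity. Irs2, the insulin receptor substrate induced by fasting, fell from 26.4 and 30.4 to 5.95 and 4.97 CPM (-2.38 ± 0.14, adjusted p = 0.00261). Ppargc1a, a coactivator of gluconeogenic transcription, had 19.95, 11.7, 7.36 and 7.64 CPM (-1.08 ± 0.26, adjusted p = 0.0477). In all, 9 of 20 tested members fell (45%, against 7.26% of all genes) and 0 rose, with a median log2 fold change of -0.506. The other called members were Insr, the insulin receptor, at -0.60 ± 0.10, Mttp, which loads lipid onto lipoproteins, at -0.58 ± 0.14, Sik1, a salt-inducible kinase, at -1.35 ± 0.33, and Crtc2, a CREB coactivator, at -0.35 ± 0.08. Fbp1 and Pcx, enzymes upstream in the same pathway, were not called, at -0.18 ± 0.16 and -0.29 ± 0.12, and neither was Foxo1 at -0.66 ± 0.17. The group had 5 calls with library totals in place of TMM, 3 in the 8-library fit, 4 without refed 1, 4 without refed 2 and 13 without fasted 2. These are bulk tissue values, in which fewer cells of a type and less RNA per cell cannot be told apart.

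The promoter of Pck1 is shown because it held a cyclic AMP response element type sequence, TTACGTCA, which begins 93 bases before the transcription start and is in capitals. It spans chr2:173152823-173153122 (GRCm38.p6, plus strand, RefSeq), from 250 bases before the start to 50 after it, and is written 5′ to 3′.
Pck1: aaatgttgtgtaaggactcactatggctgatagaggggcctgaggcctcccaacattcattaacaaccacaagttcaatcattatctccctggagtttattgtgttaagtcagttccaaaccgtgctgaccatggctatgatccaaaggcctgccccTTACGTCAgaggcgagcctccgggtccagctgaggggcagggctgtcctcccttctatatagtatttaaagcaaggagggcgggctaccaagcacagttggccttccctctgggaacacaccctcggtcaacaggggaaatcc
This 8-base sequence, searched on both strands, stood in 164 of 32851 such windows (0.499%). It was found for 2 of the 16 group members that had a window, Pck1 and Mttp. Both were called lower, as were 6 of these 16 members in all.

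Genes of glucose use moved in both directions. Ppp1r3b, which targets a phosphatase to glycogen and activates its synthesis, rose from 118 and 68.3 to 267 and 309 CPM (1.63 ± 0.26, adjusted p = 0.0175). Pklr, the liver pyruvate kinase, rose from 50.1 and 52.9 to 74.2 and 105 CPM (0.80 ± 0.17, adjusted p = 0.0362), and Pfkfb3, which makes the glycolytic activator fructose 2,6-bisphosphate, changed by 0.93 ± 0.22. Ppp1r3g, Slc16a1 and Gys2 fell. Ppp1r3g, another glycogen-targeting phosphatase subunit, had 202, 950, 8 and 1 counts, so that its ratio of summed counts was 124 to the fasted side (95% exact interval 65.2 to 272, counting error only). Slc16a1, a lactate and ketone body transporter, fell from 224 and 273 to 103 and 85.9 CPM (-1.39 ± 0.15, adjusted p = 0.00707), and Gys2, the liver glycogen synthase, from 261 and 226 to 158 and 142 CPM (-0.70 ± 0.12, adjusted p = 0.02). Slc2a2, the liver glucose transporter, and Pygl, glycogen phosphorylase, were not called, at 0.42 ± 0.17 and 0.21 ± 0.10. Of 25 tested members 5 rose (20%, against 6.78% of all genes) and 3 fell (12%, against 7.26%), and the median was 0.144. The calls without refed 1 were 2 higher and 1 lower, and without refed 2 they were 1 and 0. The 8-library fit gave 2 and 2. Eno1, at 1 count in all libraries together, was not tested.

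Lipogenic genes moved in both directions, and most were not called. Srebf1, which encodes SREBP-1, had 29.5, 26.6, 80.2 and 185 CPM. Both refed libraries were above both fasted ones, as in every gene called higher. Refed 2 was more than 2-fold above refed 1, with a log2 fold change of 2.24 ± 0.38 (SE, adjusted p = 0.02). Fasn, fatty acid synthase, had 110.3, 70.4, 242 and 475 CPM (1.99 ± 0.37, adjusted p = 0.025), and Acly, which makes cytosolic acetyl-CoA, had 71.4, 62.4, 152 and 235 CPM (1.53 ± 0.22, adjusted p = 0.0126). Thrsp, a lipogenic activator, rose from 10.2 and 8.20 to 26.9 and 75.3 CPM (2.47 ± 0.48, adjusted p = 0.028). In each of these genes refed 2 was the highest library. Elovl6, a fatty acid elongase, and Nr1h3, the oxysterol receptor LXRalpha, rose by less, 0.75 ± 0.14 and 0.38 ± 0.09. Insig2, which retains SREBP in the ER and whose liver transcript is known to be insulin-repressed, fell from 1347 and 1087 to 295 and 204 CPM (-2.29 ± 0.22, adjusted p = 0.00583). Lpin2, a phosphatidate phosphatase, fell from 757 and 324 to 108 and 113 CPM (-2.29 ± 0.39, adjusted p = 0.0197), and Acacb, whose product malonyl-CoA blocks mitochondrial fatty acid entry, from 164 and 116 to 58.3 and 51.1 CPM (-1.35 ± 0.18, adjusted p = 0.0112). Elovl5 and Dgat1, an elongase and the last enzyme of triglyceride synthesis, fell as well, by 1.11 ± 0.15 and 0.37 ± 0.09. Scd1, the stearoyl-CoA desaturase, was not called at 0.17 ± 0.28, and its libraries overlapped at 1301, 2347, 2147 and 1948 CPM. Pnpla3, a lipase-like lipid droplet gene, had 9, 16, 12 and 29 counts. In total 6 of 28 members rose (21.4%, against 6.78% of all genes), 5 fell (17.9%, against 7.26%), and the median was 0.163. Leaving out refed 1 gave 5 higher and 1 lower, and leaving out refed 2 gave 3 and 1. The 8-library fit gave 3 and 4.

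Most genes of cholesterol synthesis and uptake rose. Mvd, the mevalonate pathway decarboxylase, had 5.03, 3.58, 34.01 and 83.4 CPM, a log2 fold change of 3.77 ± 0.47 (SE, adjusted p = 0.0092). Insig1, the sterol-regulated partner of SREBP, had 63.4, 41.4, 223 and 559 CPM (2.90 ± 0.47, adjusted p = 0.0173). Sqle, squalene epoxidase, had 30.6, 12.8, 87.2 and 159.9 CPM (2.51 ± 0.48, adjusted p = 0.0262). Fasted and refed libraries did not overlap in any of these genes, as in every called gene, and refed 2 was above refed 1 in each. Of 25 tested members 16 rose (64%, against 6.78% of all genes) and 0 fell, with a median log2 fold change of 1.73. Sc4mol, Fdps, Mvk, Lss, Stard4, Idi1, Fdft1, Sc5d and Acat2, further enzymes and a carrier of this group, rose as well, with log2 fold changes of 0.98 to 2.60. Hmgcs1, the first committed step, missed the threshold at 188, 128, 309 and 851 CPM (1.88 ± 0.48, adjusted p = 0.0575), with refed libraries 2.75-fold apart. Tm7sf2, Ebp and Hsd17b7 had log2 fold changes of -0.20, 0.24 and 0.07, without a call. The group without refed 1 had 16 calls, without refed 2 it had 6, without fasted 1 it had 21, and the 8-library fit gave 6. The core of the sterol regulatory element, CACCCCAC on either strand, was found in 2.87% of all promoter windows and for 2 of the 17 members with a window, Acat2 and Hmgcs1.

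Many genes of fatty acid oxidation and ketogenesis, most of them PPARalpha targets, fell. Angptl4, a secreted inhibitor of lipoprotein lipase, had 255, 181, 18.3 and 18.6 CPM, a change of -3.56 ± 0.19 (SE, adjusted p = 0.00223). Fgf21, the fasting hepatokine, had 12.8, 13.2, 1.38 and 1.98 CPM, a change of -2.95 ± 0.20 (SE, adjusted p = 0.00292). Pdk4, the kinase that blocks pyruvate oxidation, fell from 36.4 and 80.1 to 11.4 and 9.22 CPM (-2.50 ± 0.38, adjusted p = 0.0147). These genes had no overlap between groups, as in every called gene. The refed libraries were close together for Angptl4, while those of Fgf21 differed 1.43-fold. For Pdk4 fasted 2, at 80.1 CPM, stood well above fasted 1, at 36.4 CPM. Ppara itself fell from 486 and 394 to 198 and 204 CPM (-1.13 ± 0.13, adjusted p = 0.00835), and Cpt1a, the gate of mitochondrial fatty acid import, from 1011 and 1105 to 481 and 425 CPM (-1.22 ± 0.13, adjusted p = 0.00661). The lipid droplet genes Plin2, Cidec and Plin5 changed by -1.74 ± 0.16, -1.92 ± 0.22 and -0.90 ± 0.15. The acyl-CoA thioesterases Acot1, Acot2, Acot3 and Acot4 changed by -1.78 ± 0.22, -1.97 ± 0.27, -2.24 ± 0.27 and -0.98 ± 0.11, although reads can be shared between these near-identical genes. Enzymes of the beta-oxidation spiral such as Acadm, Acadl and Hadha had log2 fold changes of -0.28, -0.39 and -0.32, without a call. Of 36 tested members 16 fell (44.4%, against 7.26% of all genes) and 0 rose, with a median of -0.615. In 33 members both refed libraries were below both fasted libraries, as in 4113 of all 13406 tested genes. DESeq2 called 30 of the 36 members lower. The count was 7 without refed 1, 4 without refed 2, 22 without either fasted library in turn, and 9 in the 8-library fit.

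**Figure D2:**
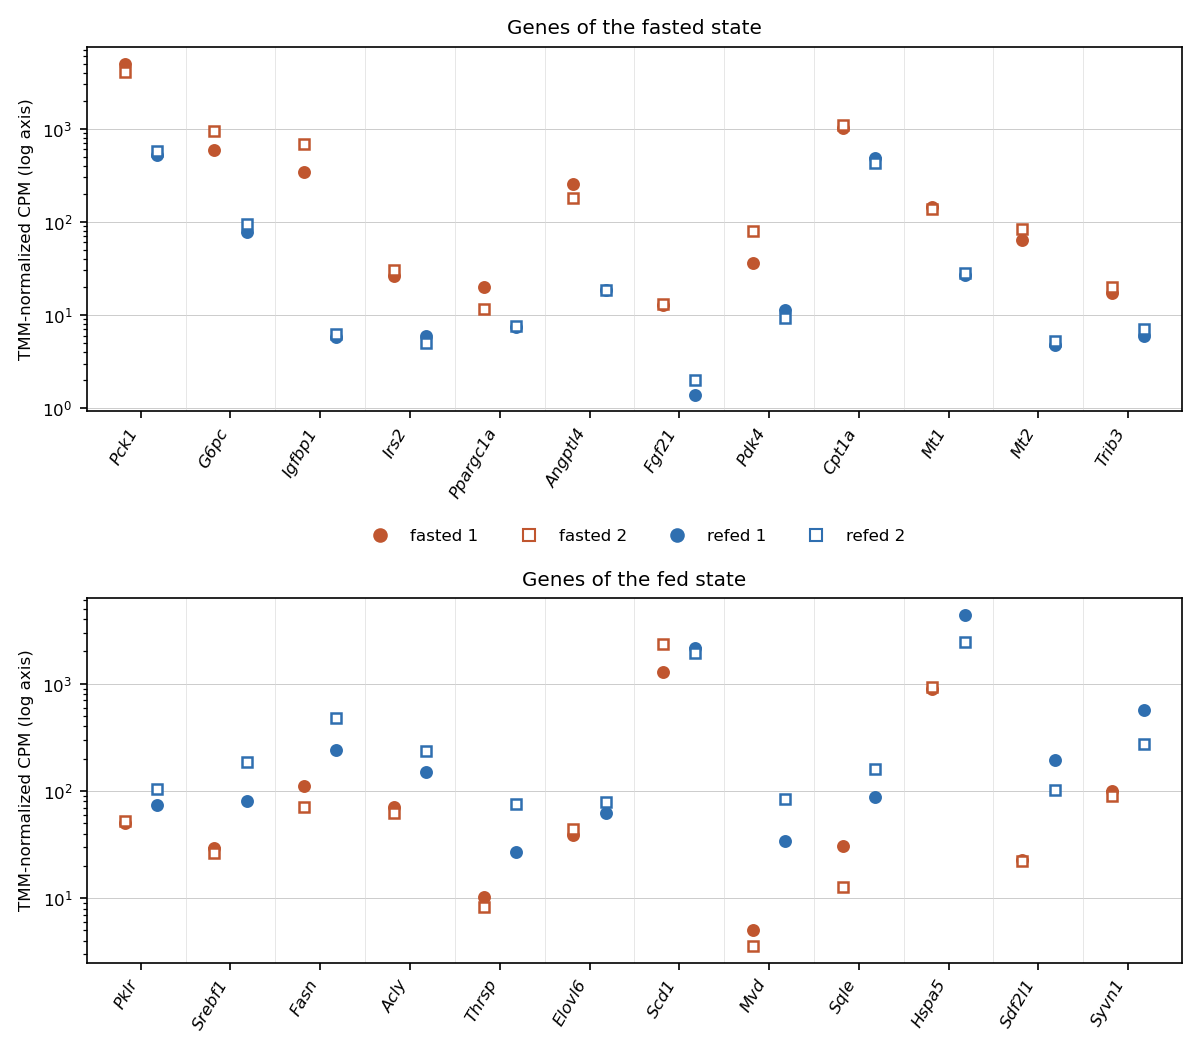
The y axes give TMM-normalized CPM on a log scale for single genes of WT liver, with genes of the fasted state above and of the fed state below. Filled circles are library 1 and open squares library 2 of each group (orange fasted, blue refed), and the groups overlap in Scd1, whereas Pck1 lies at 4994 and 4076 fasted against 522 and 575 refed.

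Most genes of protein folding and quality control in the ER rose, Syvn1 among them. Syvn1 (chr19:6046576-6053718, GRCm38), which encodes HRD1, had 100.03, 90.2, 575 and 274 CPM. Both refed libraries were above both fasted ones, as in every gene called higher, and refed 1 was about 2-fold above refed 2. The log2 fold change was 2.16 ± 0.35 (SE, adjusted p = 0.0169). Sel1l, the partner that stabilizes HRD1, rose from 196 and 194 to 421 and 300.4 CPM (0.89 ± 0.17, adjusted p = 0.0286). Hspa5, the ER chaperone BiP, had 889, 924, 4418 and 2477 CPM (1.93 ± 0.28, adjusted p = 0.0135). Sdf2l1, a BiP cofactor, had 22.7, 22.2, 193 and 102 CPM (2.71 ± 0.30, adjusted p = 0.00752), Creld2 had 47.4, 38.8, 367 and 144 CPM (2.57 ± 0.44, adjusted p = 0.0199), and Manf, a secreted ER stress protein, had 60.4, 69.9, 439.8 and 289 CPM (2.48 ± 0.22, adjusted p = 0.00528). Refed 1 was the highest library in each. Hyou1, a chaperone and exchange factor of BiP, changed by 2.20 ± 0.26, the disulfide isomerases Pdia4, Pdia3 and Pdia6 by 1.39 ± 0.26, 1.0 ± 0.15 and 0.99 ± 0.16, and the chaperones Hsp90b1 and Calr by 1.33 ± 0.30 and 1.08 ± 0.13. Of the regulators, Xbp1 rose from 183 and 218 to 321 and 315 CPM (0.67 ± 0.12, adjusted p = 0.0231), while Atf6 and Ern1 were not called at 0.16 ± 0.09 and 0.40 ± 0.17. Spliced and unspliced Xbp1 cannot be told apart in counts per gene. Of 32 tested members 22 rose (68.8%, against 6.78% of all genes) and 0 fell, with a median of 0.838. Herpud1, a further ERAD component, was not called, with 284 CPM in both fasted 1 and refed 2, and Derl3 had 5.41, 2.77, 60.2 and 9.36 CPM. There were 6 calls without refed 1 and 11 without refed 2, and the 8-library fit gave 8, in which Syvn1 had an adjusted p of 0.111.

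Promoters of Hspa5, Creld2 and Syvn1 are shown because each held an ER stress response element (ERSE), the sequence CCAAT followed after 9 bases by CCACG, which is bound by NF-Y and ATF6 or XBP1. Capitals mark the element, which lies on the opposite strand in Creld2. Each window runs from 250 bases before to 50 bases after the start, 5′ to 3′ on the gene's strand, and comes from RefSeq on GRCm38.p6. They span chr2:34771840-34772139 for Hspa5, chr15:88819396-88819695 for Creld2 and chr19:6046326-6046625 for Syvn1, all on the plus strand.
Hspa5: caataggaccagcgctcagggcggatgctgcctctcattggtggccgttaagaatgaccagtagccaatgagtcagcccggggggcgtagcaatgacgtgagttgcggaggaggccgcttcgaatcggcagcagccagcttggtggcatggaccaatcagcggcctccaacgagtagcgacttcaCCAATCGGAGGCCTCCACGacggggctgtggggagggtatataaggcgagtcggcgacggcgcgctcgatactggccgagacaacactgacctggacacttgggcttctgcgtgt
Creld2: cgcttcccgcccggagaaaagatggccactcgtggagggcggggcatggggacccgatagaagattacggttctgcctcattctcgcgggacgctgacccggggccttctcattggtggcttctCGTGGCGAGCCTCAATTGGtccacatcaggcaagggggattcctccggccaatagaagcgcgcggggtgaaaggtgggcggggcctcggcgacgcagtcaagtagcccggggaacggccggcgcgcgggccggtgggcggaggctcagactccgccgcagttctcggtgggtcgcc
Syvn1: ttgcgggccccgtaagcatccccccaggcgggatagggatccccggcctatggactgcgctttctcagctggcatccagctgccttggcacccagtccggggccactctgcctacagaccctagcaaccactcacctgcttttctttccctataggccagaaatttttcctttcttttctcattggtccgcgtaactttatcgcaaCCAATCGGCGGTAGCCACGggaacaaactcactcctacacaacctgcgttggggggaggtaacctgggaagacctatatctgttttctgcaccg
The element began 65, 126 and 44 bases before the start. On either strand it stood in 39 of the 32851 windows (0.119%), and 9 of those windows belonged to the 26 members of the group that had one (Calr, Canx, Creld2, Derl3, Dnajc3, Hsp90b1, Hspa5, Pdia6, Syvn1). Of these 9 genes 6 were called higher, as were 18 of all 26 members with a window. A match is a description of the letters and not evidence that a factor was bound.

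Many heat shock genes also rose. Hsph1, the large co-chaperone HSP105, had 69.2, 56.2, 239 and 149.9 CPM (1.64 ± 0.24, adjusted p = 0.0136), and Hsp90aa1, the inducible HSP90, had 52.7, 49.3, 159.5 and 106 CPM (1.38 ± 0.20, adjusted p = 0.0129). Stip1, which links HSP70 and HSP90, had 58.7, 58.6, 165 and 136 CPM (1.36 ± 0.12, adjusted p = 0.00498), and Fkbp4, an HSP90 co-chaperone, had 117, 121, 266 and 256 CPM (1.13 ± 0.09, adjusted p = 0.00441). The groups were separate in all 4, as in every called gene, and refed 1 was above refed 2. Dnaja1, Chordc1, Bag3, Hspa8, Hsp90ab1, Hspe1, Dnajb1 and Hspa4 rose as well, with log2 fold changes of 0.43 to 1.2. The classical inducible HSP70 genes were not called, with Hspa1a at 0.271, 0.264, 0.223 and 0.118 CPM and Hspa1b at 11.4, 10.3, 19.6 and 4.997 CPM, which are near-identical copies of each other. In total 12 of 22 members rose (54.5%, against 6.78% of all genes), 0 fell, and the median was 0.487. The calls were 6 without refed 1, 6 without refed 2 and 3 in the 8-library fit.

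The Hsph1 window is shown because it held a heat shock element of alternating 3-base units (GAA, 2 bases, TTC, 2 bases, GAA), given in capitals on the opposite strand and starting 36 bases after the start. It spans chr5:149636287-149636586 on the minus strand (GRCm38.p6, RefSeq) and is 1 of 2 windows of the gene.
Hsph1: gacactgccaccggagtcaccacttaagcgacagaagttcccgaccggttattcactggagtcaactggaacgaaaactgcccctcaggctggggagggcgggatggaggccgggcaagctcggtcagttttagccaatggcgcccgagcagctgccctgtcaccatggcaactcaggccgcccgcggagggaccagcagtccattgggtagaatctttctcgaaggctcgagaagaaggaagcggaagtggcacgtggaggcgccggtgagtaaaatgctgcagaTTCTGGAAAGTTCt
That pattern was found in 0.603% of all windows and for 4 of the 16 group members with a window (Chordc1, Hspd1, Hspe1, Hsph1).

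The 2 refed libraries differed from each other along these groups. All 25 cholesterol genes were higher in refed 2 than in refed 1, with a median ratio of 1.83, and 10 of them were at least 2-fold apart. The reverse held for 31 of 32 ER genes, with a median ratio of refed 1 over refed 2 of 1.27, and for 21 of 22 heat shock genes, with 1.19. Over all tested genes refed 2 was the higher one at 48.5%, and the median ratio was 0.995. Among all 28 lipogenic genes 20 were higher in refed 2, with a median ratio of 1.1. Among the called lipogenic genes that rose, 6 of 6 were higher in refed 2, with a median ratio of 1.76. Acute-phase genes were also higher in refed 2, 23 of 26, and Saa1, Saa2 and Lcn2 stood far above the other 3 libraries there. Saa1, a serum amyloid A of acute inflammation, had 47.9, 20.9, 20.96 and 468 CPM, Saa2 had 8.82, 4.97, 5.08 and 286 CPM and Lcn2, an iron-sequestering lipocalin, had 10.6, 11.9, 4.86 and 54.3 CPM. With 2 libraries per group this split has no replicate of its own, and its part in the results above was not tested beyond the counts without each library.

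**Figure D3:**
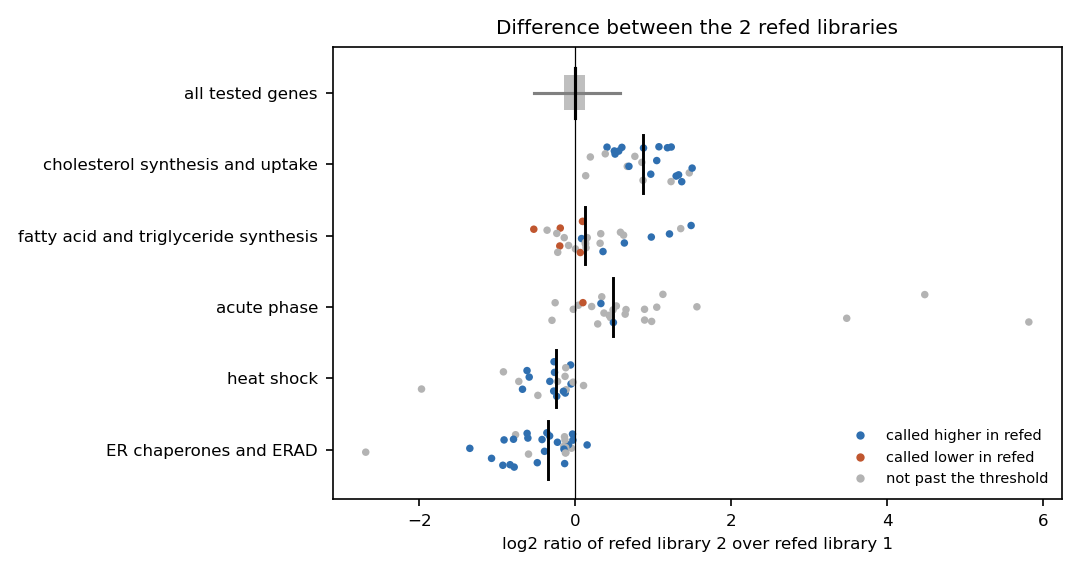
The x axis gives the log2 ratio of refed library 2 over refed library 1 for each tested member of 5 gene groups (points, with black lines for the group medians). The top row gives all tested genes as a box from the 25th to the 75th percentile with whiskers to the 5th and 95th. The cholesterol genes were higher in refed 2 (25 of 25), while the ER genes were higher in refed 1 (31 of 32).

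Most genes of the integrated stress response were not called. With TMM on the 4 WT libraries those that fell outnumbered those that rose, while library totals in place of TMM gave 5 of each. Ddit3 (CHOP), a pro-apoptotic factor of this response, had 6.02, 5.08, 14.5 and 10.2 CPM (1.15 ± 0.21, adjusted p = 0.0231), and Psph, of serine synthesis, rose by 0.60 ± 0.14. Trib3, a pseudokinase, fell from 17.1 and 19.96 to 5.89 and 7.05 CPM (-1.52 ± 0.15, adjusted p = 0.00583), Sesn2, a stress-induced inhibitor of mTORC1, from 17 and 13.5 to 3.50 and 2.59 CPM (-2.32 ± 0.21, adjusted p = 0.00516) and Chac1, which degrades glutathione, from 2.37 and 3.61 to 0.424 and 0.613 CPM (-2.52 ± 0.35, adjusted p = 0.0119). Cebpb, a liver bZIP factor, and Eif4ebp1, a brake on cap-dependent translation, fell by 0.94 ± 0.11 and 0.62 ± 0.10. Atf4 itself, which is controlled mainly at translation, had 107, 112, 122 and 163 CPM and was not called, and Asns had 4.51, 2.02, 3.26 and 2.90 CPM. Of 22 tested members 2 rose (9.09%, against 6.78% of all genes) and 5 fell (22.7%, against 7.26%), with a median of -0.0771. Without refed 1 the calls were 0 and 3, without refed 2 they were 0 and 2, without fasted 1 they were 2 and 9, and the 8-library fit gave 1 and 1.

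Circadian clock genes and PAR bZIP factors changed in both directions. Nr1d1 (chr11:98767932-98775377, GRCm38), which encodes the repressor REV-ERBalpha, had 15.8, 18.2, 75.4 and 102 CPM, and its replicates were close together at 2.38 ± 0.17 (SE, adjusted p = 0.00321). Dbp, a PAR bZIP factor with one of the largest daily swings in liver, had 0.902, 1.10, 16.7 and 27.7 CPM (4.47 ± 0.31, adjusted p = 0.00292). Per2 and Per3 of the negative limb had 11.3, 8.40, 41.3 and 48.02 CPM (2.18 ± 0.17, adjusted p = 0.00399) and 4.53, 3.50, 14.4 and 27.9 CPM (2.40 ± 0.34, adjusted p = 0.0126). Per1 went the other way, from 35.6 and 12.1 to 3.84 and 5.56 CPM (-2.35 ± 0.52, adjusted p = 0.0397), with fasted 1 about 3-fold above fasted 2. Among further genes that rose were Ciart (listed as Gm129), a repressor of CLOCK and BMAL1, at 0.924, 0.440, 3.61 and 5.92 CPM (2.80 ± 0.43, adjusted p = 0.015), Bhlhe41 at 2.61 ± 0.47, Nr1d2 at 0.99 ± 0.12 and Tef at 0.91 ± 0.12. Of the positive limb, Arntl (BMAL1) fell, at 33.6, 40.7, 18.7 and 14.5 CPM (-1.16 ± 0.16, adjusted p = 0.012), as did Npas2, at 6.29, 10.6, 2.41 and 1.37 CPM (-2.15 ± 0.37, adjusted p = 0.0197). Nfil3, the repressor that opposes DBP, fell from 54 and 79.6 to 24.2 and 23.03 CPM (-1.50 ± 0.19, adjusted p = 0.00954), and Cry1, a repressor of the negative limb, fell by 0.93 ± 0.15. Clock, the partner of BMAL1, was not called at -0.17 ± 0.11, nor were Cry2, Hlf, Bhlhe40 and Rora. Of 19 members 8 rose (42.1%, against 6.78% of all genes) and 6 fell (31.6%, against 7.26%), with a median of 0.285. Without refed 1 the calls were 6 and 1, without refed 2 they were 3 and 0, and the 8-library fit gave 4 and 0. Refeeding and the hour of collection cannot be told apart for these genes, as for all other genes here.

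The windows of Ciart and Per3 are shown because they held the clock elements in several copies, the E-box CACGTG bound by CLOCK and BMAL1 in Ciart (3 copies) and the D-box TTATGNAA bound by DBP and NFIL3 in Per3 (2 copies). Capitals mark them. They span chr3:95882179-95882478 and chr4:151044616-151044915, both on the minus strand (GRCm38.p6, RefSeq).
Ciart: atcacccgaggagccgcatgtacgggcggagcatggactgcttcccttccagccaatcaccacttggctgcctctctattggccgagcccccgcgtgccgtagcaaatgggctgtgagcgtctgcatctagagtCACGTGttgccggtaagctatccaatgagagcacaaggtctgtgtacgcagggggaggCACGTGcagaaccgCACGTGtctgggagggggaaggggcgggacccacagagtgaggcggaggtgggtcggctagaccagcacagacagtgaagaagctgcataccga
Per3: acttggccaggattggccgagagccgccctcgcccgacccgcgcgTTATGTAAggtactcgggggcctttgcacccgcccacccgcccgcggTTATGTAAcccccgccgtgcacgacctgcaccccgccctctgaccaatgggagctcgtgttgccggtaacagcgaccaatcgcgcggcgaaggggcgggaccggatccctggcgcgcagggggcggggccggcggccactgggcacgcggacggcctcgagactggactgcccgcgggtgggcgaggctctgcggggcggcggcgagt
An E-box stood in 7.15% of all windows and for 5 of the 16 clock genes with a window (Bhlhe41, Cry1, Ciart, Per1, Tef), of which Cry1 and Per1 fell and the others rose. A D-box on either strand stood in 3.38% of all windows and for 2 of 16, Per3 and Per1, which moved in opposite directions. Calls were made for 12 of the 16 clock genes with a window.

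**Figure D4:**
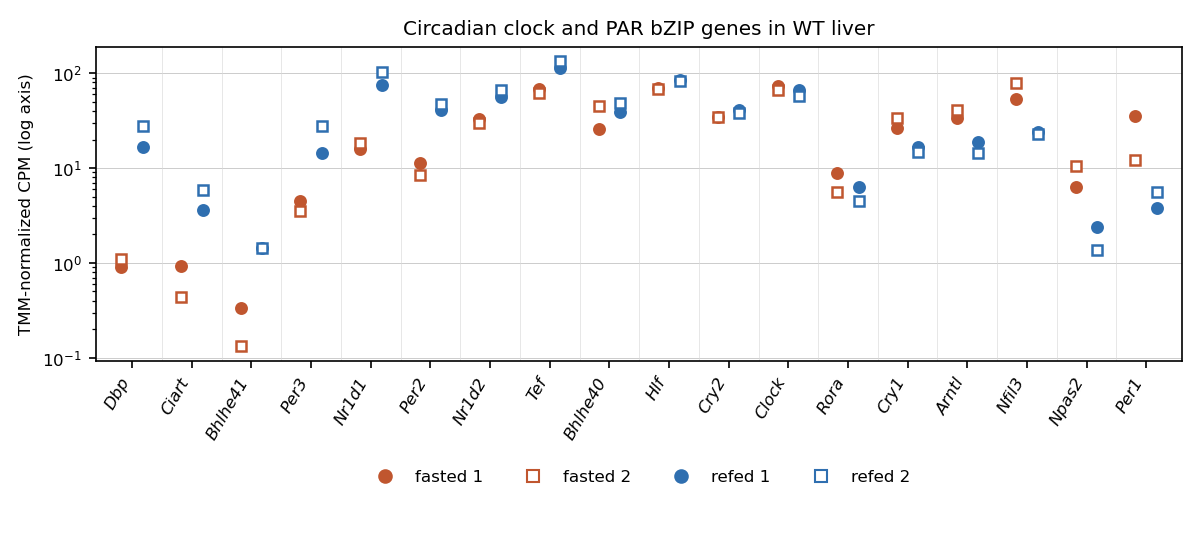
TMM-normalized CPM on a log axis is shown for 18 of the clock and PAR bZIP genes in the 4 WT libraries, ordered by log2 fold change from the highest (Dbp, 4.47) to the lowest (Per1, -2.35). Filled circles are library 1 and open squares library 2, and the refed libraries lie above the fasted ones at the left and below them at the right.

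Amino acid breakdown changed in a few genes. Slc25a47, a liver mitochondrial carrier, had 1364, 1007, 118 and 121 CPM (-3.31 ± 0.18, adjusted p = 0.00243). Got1, the cytosolic aspartate aminotransferase, fell from 431 and 452 to 191 and 132 CPM (-1.45 ± 0.19, adjusted p = 0.00998), and Aass, which starts lysine breakdown, from 1101 and 1208 to 518 and 492 CPM (-1.19 ± 0.12, adjusted p = 0.00618). The amino acid transporters Slc38a2 and Slc38a4 fell by 0.58 ± 0.09 and 0.58 ± 0.11. Asl of the urea cycle and Bckdhb of branched-chain amino acid breakdown fell by 0.61 ± 0.12 and 0.39 ± 0.09. Glud1, glutamate dehydrogenase, rose from 535 and 611 to 959 and 974 CPM (0.75 ± 0.12, adjusted p = 0.0171), and Nags, which makes the activator of the urea cycle, from 69.8 and 66.8 to 102 and 103 CPM (0.59 ± 0.08, adjusted p = 0.0127). Cps1, Arg1 and Otc of the urea cycle were not called, at -0.39 ± 0.14, -0.33 ± 0.12 and 0.17 ± 0.11. Ass1 was listed at 0.564, 0.923, 0.647 and 0.849 CPM, and whether near-identical copies took its reads was not tested. Of 29 members 2 rose (6.90%, against 6.78% of all genes) and 7 fell (24.1%, against 7.26%), and the median was -0.24. Leaving out refed 1 left 0 and 2 calls, without refed 2 they were 0 and 1, and the 8-library fit gave 0 and 3.

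Several autophagy genes fell. Wipi1, a phosphoinositide-binding protein of autophagosome formation, fell from 33.3 and 28.5 to 9.48 and 8.63 CPM (-1.77 ± 0.12, adjusted p = 0.00292), and Ulk1, the initiating kinase, from 75.03 and 58.2 to 30.8 and 31.2 CPM (-1.10 ± 0.14, adjusted p = 0.0089). Map1lc3b, which coats autophagosomes, fell from 104 and 109 to 65.3 and 65.7 CPM (-0.70 ± 0.09, adjusted p = 0.00883). Replicates were close together, and the groups did not overlap, as in every called gene. Tbc1d15, Atg2a, Bnip3, Atg14, Flcn and Wipi2 fell, with log2 fold changes of -0.99 to -0.39. The lysosomal genes Lamp1, Lamp2, Ctsd and Ctsb and the regulator Tfeb were not called, with values between -0.21 and 0.24. In all 9 of 26 members fell (34.6%, against 7.26% of all genes), 0 rose and the median was -0.345. There were 2 calls without refed 1, 1 without refed 2 and 3 in the 8-library fit.

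Glucocorticoid-induced genes had one of the lowest medians, -1.48. The metallothioneins Mt1 and Mt2, which bind zinc and copper, had 143, 138, 26.5 and 28.1 CPM (-2.36 ± 0.09, adjusted p = 0.00112) and 64.3, 83.3, 4.75 and 5.26 CPM (-3.88 ± 0.16, adjusted p = 0.00144). Their replicates differed by less than 1.3-fold in each group. Fkbp5, a co-chaperone and feedback inhibitor of the glucocorticoid receptor, fell from 172 and 142 to 82.6 and 62.4 CPM (-1.11 ± 0.17, adjusted p = 0.0151), and Cebpd, a bZIP factor, from 6.38 and 6.05 to 2.01 and 1.63 CPM (-1.77 ± 0.19, adjusted p = 0.00725). Errfi1, a feedback inhibitor of the EGF receptor, fell from 1146 and 598 to 373 and 254 CPM (-1.48 ± 0.34, adjusted p = 0.0451). Angptl4 and Per1, described above, complete the 7 of 21 that fell (33.3%, against 7.26% of all genes). Gadd45a, a stress-induced cell cycle gene, rose from 1.74 and 2.001 to 5.58 and 5.26 CPM (1.53 ± 0.19, adjusted p = 0.00856), and Pik3r1, the regulatory subunit of the kinase downstream of the insulin receptor, from 42.2 and 44.9 to 108 and 116 CPM (1.36 ± 0.09, adjusted p = 0.00289). Tsc22d3 (GILZ), a standard target of the receptor, was not called at 94.7, 70.4, 75.8 and 82.8 CPM, and Zbtb16 missed the threshold at 69.1, 8.42, 2.79 and 1.77 CPM (-4.08 ± 1.01, adjusted p = 0.0527). The calls were 2 higher and 5 lower without refed 1, 1 and 3 without refed 2, 2 and 14 without fasted 2, 2 and 11 without fasted 1, and 2 and 4 in the 8-library fit.

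Immediate early genes differed between the fasted libraries. Fos had 0.383, 22.9, 0.335 and 0.801 CPM, Jun had 11.1, 116, 8.67 and 9.66 CPM and Egr1 had 15.4, 68.1, 11.5 and 5.68 CPM, and none was called. In each of them fasted 2 stood alone. Of the 23 tested members 21 were higher in fasted 2 than in fasted 1, and 13 had fasted libraries at least 2-fold apart. The 4 members that fell (17.4%) were Gadd45g, a growth arrest gene, at 27.9, 118, 7.49 and 5.59 CPM (-3.48 ± 0.69, adjusted p = 0.029), Gadd45b at 9.06, 11.3, 2.50 and 1.77 CPM (-2.25 ± 0.23, adjusted p = 0.00635), the antiproliferative gene Btg2 at 20.8, 54.9, 10.2 and 9.26 CPM (-1.96 ± 0.44, adjusted p = 0.0405) and the AP-1 subunit Fosl2 at 17.2, 18.9, 5.78 and 6.67 CPM (-1.54 ± 0.13, adjusted p = 0.00441). None rose, and the median was -1.54. The share that fell, 17.4%, compares with 7.26% of all genes. Without fasted 1 the count became 18, without fasted 2 it was 6, without refed 1 it was 2, without refed 2 it was 1, and the 8-library fit gave 2.

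Among secreted factors and the growth hormone axis, Angptl8 (listed as Gm6484), a feeding-induced inhibitor of lipoprotein lipase, had 9.49, 8.51, 84.8 and 125 CPM (3.55 ± 0.21, adjusted p = 0.00261). It moved against Angptl4, its fasting counterpart. Igfals, which carries IGF1 in blood, rose from 71.2 and 93.2 to 184 and 200.4 CPM (1.23 ± 0.15, adjusted p = 0.009), Lect2, a hepatokine, from 39.3 and 44.7 to 80.7 and 82.2 CPM (0.96 ± 0.10, adjusted p = 0.00632), and Ghr, the growth hormone receptor, from 317 and 334 to 475 and 536 CPM (0.64 ± 0.11, adjusted p = 0.0229). Lepr, the leptin receptor, fell from 23.1 and 89.8 to 4.30 and 6.62 CPM (-3.37 ± 0.67, adjusted p = 0.0289), Fst, an activin antagonist, from 4.42 and 19.4 to 1.52 and 1.49 CPM (-2.99 ± 0.70, adjusted p = 0.046) and Socs2, a feedback inhibitor of growth hormone signalling, from 39.4 and 64.2 to 2.92 and 12.8 CPM (-2.73 ± 0.65, adjusted p = 0.0471). For these 3 genes the replicates of at least 1 group were over 3-fold apart. Stat5b, which carries growth hormone signals to the nucleus, and Adipor2, an adiponectin receptor, fell by 0.78 ± 0.09 and 0.56 ± 0.11, and Igf1 was not called at 607, 743, 546 and 643 CPM. With Fgf21 and Igfbp1, 7 of 28 members fell (25%, against 7.26% of all genes) and 4 rose (14.3%, against 6.78%), at a median of -0.0731. Without refed 1 the calls were 1 higher and 2 lower, without refed 2 they were 1 and 3, without fasted 2 they were 7 and 7, and the 8-library fit gave 1 and 3.

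Acute-phase, bile acid and ribosome genes were mostly without a call. Of 26 acute-phase genes 2 rose (7.69%, against 6.78% of all genes) and 1 fell (3.85%, against 7.26%). Steap4, a metalloreductase, and Saa4 rose by 1.33 ± 0.19 and 0.88 ± 0.20. Il1rn, the interleukin-1 receptor antagonist, fell from 8.12 and 6.16 to 1.67 and 1.79 CPM (-2.04 ± 0.21, adjusted p = 0.00655). Nr0b2 (SHP), the bile acid-induced corepressor, rose from 10.7 and 14.03 to 32.7 and 27.8 CPM (1.29 ± 0.16, adjusted p = 0.00944), and Abcb11, the bile salt export pump, by 0.48 ± 0.10. Cyp8b1, which makes cholic acid, fell from 1808 and 1749.6 to 962 and 673 CPM (-1.12 ± 0.19, adjusted p = 0.0201), Abcb4, a phospholipid exporter, from 739 and 634 to 363 and 280.4 CPM (-1.09 ± 0.17, adjusted p = 0.0147) and Cyp27a1, of the acidic pathway, with a log2 fold change of -0.52 ± 0.11. Cyp7a1, the rate-limiting enzyme of bile acid synthesis, was not called at 245, 334, 417 and 421 CPM. Of 19 bile acid genes 2 rose (10.5%, against 6.78% of all genes) and 3 fell (15.8%, against 7.26%). Of 34 ribosome biogenesis genes 3 rose (8.82%, against 6.78% of all genes) and 0 fell. Rrp9 rose from 6.81 and 6.84 to 14.9 and 14.6 CPM (1.11 ± 0.11, adjusted p = 0.00606), Nop56 by 0.58 ± 0.13 and Bysl by 0.47 ± 0.10. Among 48 cytosolic ribosomal protein genes, which can share reads with pseudogenes, edgeR called 0, DESeq2 1 and limma-trend 0. An unadjusted p under 0.05 was found for 5 of these 48 genes, and for 4259 of all 13406 tested genes. The acute-phase calls were 4 higher and 0 lower without refed 1, 0 and 0 without refed 2 and 0 and 1 in the 8-library fit. Bile acid calls were 0 and 1, 0 and 0, and 1 and 1 in the same order. Ribosome biogenesis calls were 0, 0 and 1, and were 10 without fasted 1 and 9 with library totals in place of TMM.

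**Figure D5:**
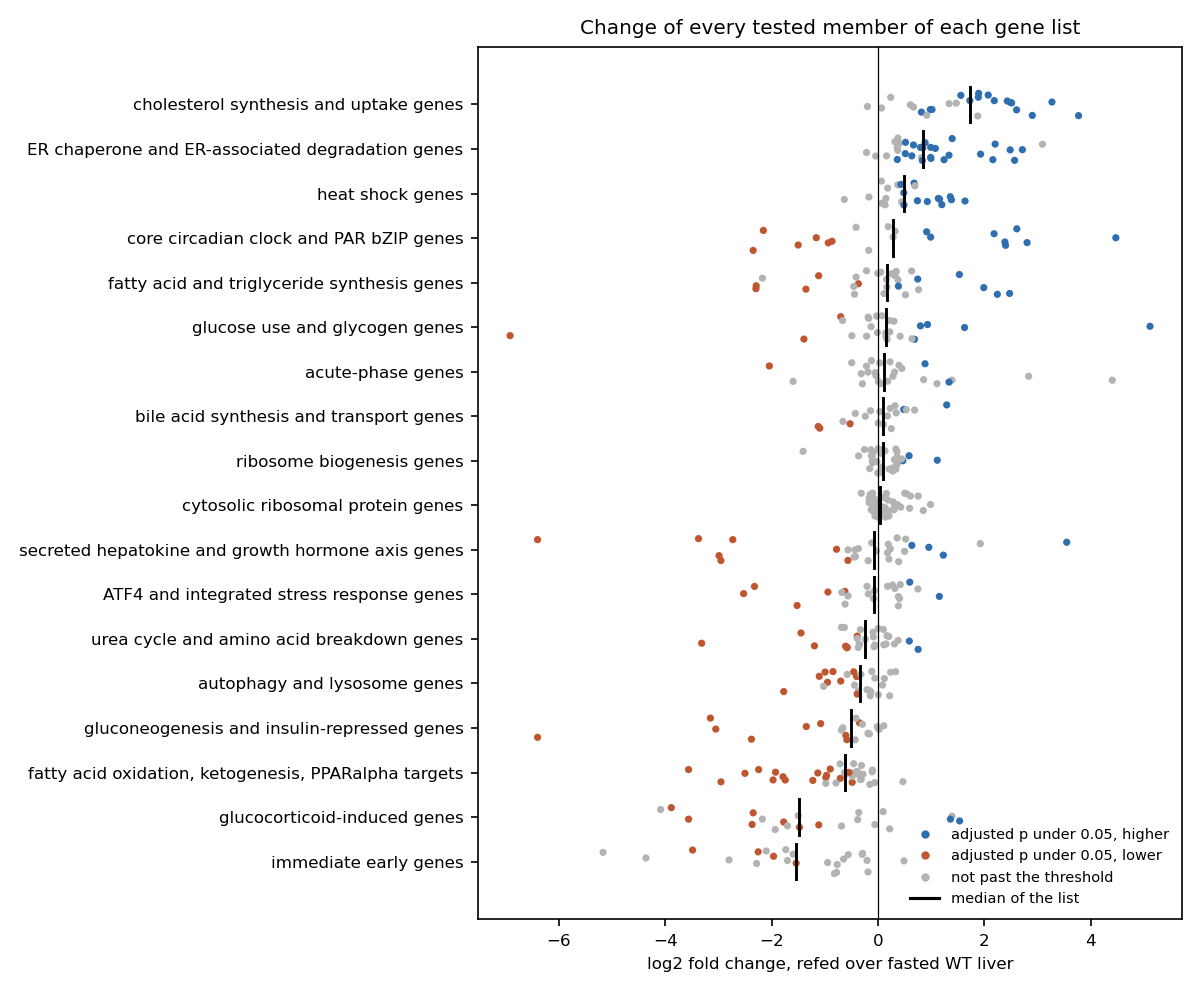
Each point is the log2 fold change, refed over fasted, of 1 tested member of the 18 gene groups, ordered by their medians (black lines). Blue points were called higher, orange points lower and grey points not called, and the medians run from -1.54 for immediate early genes to 1.73 for cholesterol genes.

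Outside these groups, the largest changes named by size were led by genes with few counts in one state. Hapln1, a link protein of the hyaluronan matrix, had 1, 0, 202 and 168 counts, a ratio of summed counts of 381 with a 95% exact interval of 68.0 to 15100 (counting error only). Serpina9, a serine protease inhibitor, had 5, 4, 153 and 169 counts, a ratio of 36.8 (19.2 to 81.3). Bhlha15 (MIST1), a transcription factor of secretory cells, had 5, 7, 168 and 54 counts, a ratio of 19.1 (10.7 to 37.4), and was highest in refed 1 as the ER genes were. Klhl31 had 6, 4, 68 and 58 counts, a ratio of 13 (6.83 to 27.7). That the groups did not overlap in these genes was part of how they were chosen. Cyp26a1, which inactivates retinoic acid, had 3.54, 7.94, 96.2 and 68.9 CPM (3.85 ± 0.39, adjusted p = 0.00646), and Clec2h, a C-type lectin, had 0.676, 2.20, 15.8 and 14.8 CPM (3.40 ± 0.47, adjusted p = 0.0116). On the lower side, Adra2a, the alpha-2A adrenergic receptor, had 88, 31, 2 and 1 counts, a ratio of 38.5 to the fasted side (12.9 to 189). Unc79, a component of the sodium leak channel complex, had 62, 43, 2 and 1 counts, a ratio of 34.0 (11.3 to 167), and Cpne5, a copine, had 142, 54, 7 and 4 counts, a ratio of 17.3 (9.46 to 35.2). Rgs16, which turns off G protein signals, had 6.81, 12.03, 0.156 and 0.495 CPM (-4.86 ± 0.52, adjusted p = 0.00723). The uncharacterized transcripts B930025P03Rik and 5730420D15Rik had 42.5, 35.99, 2.52 and 2.50 CPM (-3.97 ± 0.13, adjusted p = 0.00112) and 60, 216, 6 and 10 counts. Whether reads were counted by strand is not given in the sources used here, so reads of overlapping genes cannot be told apart.

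The refeeding change of WT liver was set against that of KO liver by a test of their difference in the 8-library fit. Syvn1 had 32.6, 31.5, 453 and 132 CPM in fasted 1, fasted 2, refed 1 and refed 2 of the KO mice, on the scale of the 8-library fit, which differs from that of the WT values above. Counts per gene include exons outside a deletion, so this value does not check the labels. The difference between the genotypes was called for 0 of 14328 genes (0%) by edgeR, with 1209 at an unadjusted p under 0.05, for 0 by limma-trend and for 105 by DESeq2. The smallest adjusted p was 0.116, for Ddit3 and Hist1h1c. Ddit3 changed by 1.16 on the log2 scale in WT and 4.02 in KO liver. Hist1h1c, a linker histone named after its values were seen, changed by -1.45 and 1.0. More genes were called when either KO refed library was left out, for a cause that was not tested. Without a filter on low counts 2 genes passed. No refeeding change above was shown to differ between the genotypes in the 8-library edgeR fit.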

How the data were processed

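Total RNA of mouse liver was sequenced on an Illumina NextSeq 500 from 2 samples per condition. The deposited values were raw read counts per gene, 1 file per sample, in whole numbers. The submitters' processing notes name cutadapt, STAR, HTSeq, DESeq2 and the mm10 build, with no versions or order, whereas the methods of the study name ERANGE for gene counts, so which tool the authors used to make these counts was not settled here. Library sizes were computed from 23337 gene rows.

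Samples were grouped by their titles. Genes were kept by edgeR's filterByExpr (minimum count 10, minimum total 15), library sizes were scaled by TMM, and WT-Refed was compared with WT-Fasted by the edgeR (4.0.16, R 4.3.3) quasi-likelihood test, two-sided, on the 4 WT libraries, with Benjamini-Hochberg adjusted p over all 13406 tested genes and a threshold of 0.05. The difference between genotypes was tested as an interaction term over all 8 libraries (14328 genes). Alternatives were DESeq2 (1.42.0), limma-trend (limma 3.58.1), RLE, upper-quartile or no scaling factors, other filters, a replicate block, an added 2-fold threshold, all 8 libraries and leaving out each library. Scripts were tested on simulated data. Intervals of count ratios are exact (Clopper-Pearson) and cover counting error only. Named genes were 4 markers of the feeding state, the 10 largest changes in each direction with a mean of at least 1 CPM in the higher group and no overlap of libraries, the lead members of each group, and other group members that were called. Genes named outside this rule were chosen after their values were seen. The comparison, the gene groups and the markers were chosen with earlier results of these data known, so their direction is not independent evidence. Promoter windows came from RefSeq on GRCm38.p6, and 99.4% of tested genes matched its gene names. Motifs (6) were searched on both strands. A few genes are not reported here, and they remain in the counts and medians of their groups.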

Additional observations from a re-analysis of the deposited data

How the results depend on the processing

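The numbers of genes called higher and lower kept within 1.5 times the reported 909 and 973 under RLE (899 and 989), DESeq2 (1104 and 1265), limma-trend (894 and 969), no filter on low counts (833 and 885), at least 10 counts in every library (891 and 972), the replicate block (1272 and 1367) and upper-quartile scaling (931 and 935). They moved further with all 8 libraries in the fit (172 and 202), with library totals alone (1694 and 621) and with a 2-fold threshold (315 and 332). Leaving out 1 library at a time gave 101 to 1345 higher and 79 to 1523 lower, with the low ends without refed 2 and the high ends without fasted 1. In each of these fits 1 group is a single library, which is assumed to vary like the other group. Upper-quartile scaling and library totals alone were chosen after seeing the data. In all called genes both refed libraries lay on the same side of both fasted libraries, so leaving out 1 library could hardly turn a sign. With that limit, none of the 177 called genes that are named or listed changed sign under any of the 13 alternatives. Most kept their call without either fasted library (170 and 173), and fewer without refed 1 (74) or refed 2 (55) or with all 8 libraries (75). The cause was not tested. Replicate numbers were used as a block in 1 alternative, but same-numbered libraries deviated together only weakly (r = 0.207 across genes, 2 pairs) and no label ties them, so they share only a number and the blocked fit is not a paired analysis by design. The difference between genotypes was called for 0 genes by edgeR, limma-trend and RLE, for 2 genes without a filter and for 105 genes by DESeq2, and leaving out 1 library at a time gave 0 to 4878 genes, the most without KO refed 1. Totals were 40210576 to 49117080 counts per library, and whether depth or the number of libraries limited the calls was not tested.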
